A study of Mus musculus with 12 samples.

Results

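The response of the lung to dietary selenium was set against that of the liver, gene by gene, in the same feeding experiment. Every one of the 12 arrays of the series entered the comparison. They held 4 groups of 3 arrays, from the liver and the lung of FVB/N males that had received, from weaning on and for 6 weeks, a torula yeast diet low in selenium with 0 ppm selenium added (0 Se) or with 0.1 ppm selenium added as sodium selenite (0.1 Se). The 0 Se mice were thus not an untreated group, since both diets were made on the selenium-deficient base. Each array carried RNA of whole tissue, labelled from the 3′ end and hybridized to an Affymetrix mouse genome chip. Effects are given on the log2 scale as 0.1 Se minus 0 Se in each tissue. The difference between tissues is the lung effect minus the liver effect, and the averaged effect is the mean of both. A probe set, the group of short probes that reads a transcript, was compared when every one of the 4 groups gave 2 or more values. That held for 15112 probe sets, which named 8290 of the 13710 genes on the table. Another 6543 probe sets had enough values in lung alone and 1463 in liver alone, so a gene used by a single tissue cannot appear here.

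Selenium acts in animals mostly as selenocysteine, the amino acid built into selenoproteins at UGA codons, and when it is scarce some selenoprotein mRNAs are lost while others are spared. The liver takes up dietary selenium and sends it on as selenoprotein P. Interferon-γ is the main cytokine by which natural killer (NK) and T cells activate macrophages and epithelia. Its targets include immunity-related GTPases and guanylate-binding proteins, which attack the vacuoles of intracellular microbes, and the immunoproteasome, which cuts proteins into peptides for MHC class I. These targets are read through the GAS element and through the ISRE element bound by interferon regulatory factors.

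Upstream sequences are shown for 4 of the genes whose signal rose with selenium over both tissues, Igtp, Irgm2, Gbp7 and Psmb8, because each holds a GAS motif and 3 of them also hold the core of the ISRE. The bases are the 250 upstream of the RefSeq start site, on the plus strand of GRCm38.p6, and capitals mark the motifs. Igtp lies at chr11:58199306-58199555, Irgm2 at chr11:58214727-58214976, Gbp7 at chr3:142530086-142530335 and Psmb8 at chr17:34197945-34198194.
Igtp: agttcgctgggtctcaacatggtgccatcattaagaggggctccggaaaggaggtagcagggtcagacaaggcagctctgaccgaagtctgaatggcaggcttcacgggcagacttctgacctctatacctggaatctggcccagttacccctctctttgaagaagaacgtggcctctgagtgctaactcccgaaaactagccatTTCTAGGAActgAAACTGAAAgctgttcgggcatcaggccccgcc
Irgm2: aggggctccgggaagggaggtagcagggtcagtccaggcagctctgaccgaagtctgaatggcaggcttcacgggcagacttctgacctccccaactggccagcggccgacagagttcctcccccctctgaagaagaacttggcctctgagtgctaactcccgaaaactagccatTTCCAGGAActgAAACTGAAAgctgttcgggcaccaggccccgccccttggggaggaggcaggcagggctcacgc
Gbp7: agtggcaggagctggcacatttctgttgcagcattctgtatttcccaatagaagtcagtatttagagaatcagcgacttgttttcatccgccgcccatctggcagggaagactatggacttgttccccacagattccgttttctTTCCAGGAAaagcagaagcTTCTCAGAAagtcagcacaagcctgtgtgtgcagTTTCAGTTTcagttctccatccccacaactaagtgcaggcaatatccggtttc
Psmb8: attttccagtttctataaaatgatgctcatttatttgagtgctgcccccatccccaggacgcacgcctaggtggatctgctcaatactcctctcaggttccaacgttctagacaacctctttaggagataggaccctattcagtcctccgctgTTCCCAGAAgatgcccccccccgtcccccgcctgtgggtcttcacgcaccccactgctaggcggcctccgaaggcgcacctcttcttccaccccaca
The GAS motif was searched as TTCNNNGAA and the ISRE core as TTTCNNTTT, on either strand. In Igtp and Irgm2 the ISRE core stands on the minus strand and appears above in its reverse complement. Igtp held TTCTAGGAA ending 36 bases before the start and the ISRE core 24 bases before it, and Irgm2 held TTCCAGGAA at 66 and the core at 54 bases. These neighbours on chromosome 11 shared an identical run of 55 bases, which lies upstream of both motifs. Gbp7 held a pair of GAS matches, ending 97 and 78 bases before the start, and the core at 44 bases. Psmb8 held TTCCCAGAA at 88 bases and no match of the ISRE core in this window. Among all 27025 mouse promoters of this length, 7.18% held the GAS motif and 9.52% the ISRE core.

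The immunity-related GTPases gave large diet effects in lung and smaller ones in liver. All 6 tested members (of 9 on the list) had higher means in 0.1 Se in both tissues, with a median effect of 0.46 in liver and 1.60 in lung. Their median difference was 1.02, against -9e-04 over all 15112 probe sets. For 5 of the 6 the averaged effect passed limma's test (adjusted p under 0.05), where 40 of all probe sets did (0.265%), 36 of them higher in 0.1 Se (0.238%) and 4 lower (0.0265%). The difference between tissues itself passed for 0 probe sets (0%) by limma with Benjamini-Hochberg adjustment, the smallest adjusted p being 0.147. At an unadjusted p under 0.05 it was met by 931 probe sets (6.16%), 490 with the higher effect in lung (3.24%) and 441 with the lower (2.92%). By that unadjusted measure 5 of the 6 GTPases had the higher effect in lung. RNA of whole tissue cannot tell more cells of a type from more RNA per cell.

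Iigp1, a GTPase that coats parasite vacuoles, gave the smallest p of all differences between tissues. In lung the 0 Se arrays read log2 signals of 11.92, 11.43 and 11.27 and the 0.1 Se arrays 13.30, 13.48 and 12.99. In liver the 0 Se arrays read 14.48, 14.46 and 14.71 and the 0.1 Se arrays 14.66, 14.97 and 14.74. The diets stood apart in lung and overlapped in liver, where the signal was already high on either diet. Iigp1 rose 3.29-fold in lung (1.72 ± 0.16, SE, n = 3 per group, limma adjusted p = 0.000328), among 15 probe sets that passed in the lung contrast (0.0993%), while the liver effect was 0.24 ± 0.16. This call held in each alternative run on it. The difference was 1.48 ± 0.22 (95% interval 1.00 to 1.96, unadjusted p = 9.72e-06, limma adjusted p = 0.147). A second probe set of the gene gave 1.4 (adjusted p = 0.154). With diet and replicate number as a block both passed (adjusted p = 0.0463 and 0.0315), though the numbers are not shown to pair the arrays. 0 Se lung replicate 1 was the highest of the 0 Se lung arrays, and without it the difference was 1.67 and passed (adjusted p = 0.00803).

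Igtp, which helps guard host membranes against this attack, was higher on every 0.1 Se array than on any 0 Se array of the same tissue. Its liver signals were 11.70, 11.32 and 11.56 in 0 Se and 12.26, 12.92 and 12.75 in 0.1 Se, and its lung signals 11.20, 10.49 and 10.69 against 12.69, 12.81 and 12.05. It rose by 1.42 ± 0.15 on average (limma adjusted p = 0.000748). The effect was 1.11 in liver and 1.73 in lung, and the difference of 0.61 ± 0.31 had an interval from -0.04 to 1.26. Irgm2, a regulatory member of the family, rose by 1.17 (adjusted p = 0.0148), with 0.65 in liver and 1.68 in lung. Ifi47 rose by 0.95 ± 0.17 (adjusted p = 0.0306), with 0.59 and 1.31. Irgm1, which regulates the effector GTPases, rose by 0.83 ± 0.15 (adjusted p = 0.0306). Its liver signals overlapped between diets (10.75, 10.21 and 10.41 against 10.67, 11.07 and 10.60) and its lung signals did not (9.89, 9.20 and 9.25 against 11.09, 10.81 and 10.45). The Irgm1 difference was 1.01 ± 0.29 (unadjusted p = 0.00352). Gm4951, the member that did not pass, gave 0.12 in liver and 1.52 in lung. Gm4951 passed without 0 Se lung replicate 1 (1.07, adjusted p = 0.00112), and the call of Irgm2 ended without 0.1 Se lung replicate 2 (1.1, adjusted p = 0.0617). Those of Ifi47 (0.86 to 0.92) and Irgm1 (0.75 to 0.83) ended without 0 Se liver replicate 2 or 3, 0 Se lung replicate 2 or 3, or 0.1 Se lung replicate 1 or 2, and that of Irgm1 also without 0.1 Se liver replicate 2 or 3 (0.76 and 0.88).

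The guanylate-binding proteins showed the same order with a smaller gap. All 5 tested members (of 11) had higher means in 0.1 Se in both tissues, with median effects of 0.69 in liver and 1.29 in lung and a median difference of 0.60. The averaged effect passed for 3 of them, against 0.238% of all probe sets higher in 0.1 Se. In the difference 1 of the 5 had an unadjusted p under 0.05, against 3.24% of all probe sets higher in lung. Gbp7 signals in liver were 9.28, 9.35 and 9.25 in 0 Se and 9.99, 10.36 and 10.10 in 0.1 Se, and in lung 11.26, 10.61 and 10.70 against 12.44, 12.71 and 11.87. The diets did not overlap in either tissue, and 0 Se lung replicate 1 was again the highest of its group. Gbp7 rose by 1.17 ± 0.14 (limma adjusted p = 0.00129), with 0.85 in liver, 1.48 in lung and a difference of 0.63 ± 0.27 (interval 0.05 to 1.21, adjusted p = 0.764). Gbp8 rose by 1.57 ± 0.28 (adjusted p = 0.0341) and Gbp6, on its brightest probe set, by 1.11 ± 0.21 (adjusted p = 0.0406). Their effects were 1.21 and 0.62 in liver and 1.92 and 1.59 in lung. The other probe set of Gbp6 gave 1.18 ± 0.18 (adjusted p = 0.0124), and that of Gbp7, the brighter, gave 1.00 (adjusted p = 0.00745). Gbp2 and Gbp3 gave averaged effects of 0.90 and 0.99 that did not pass (adjusted p = 0.0614 and 0.0765). The call of Gbp8 ended (1.35 to 1.64) when any array but 0 Se replicate 1 of either tissue, 0.1 Se liver replicate 1 or 0.1 Se lung replicate 3 was left out, and that of Gbp6 on its brightest probe set (0.93 to 1.15) when any but 0.1 Se liver replicate 1, 0 Se lung replicate 1 or 0.1 Se lung replicate 3 was. Gbp2 passed without 0 Se liver replicate 1, 0.1 Se liver replicate 1 or 0.1 Se lung replicate 3 (0.96 to 1), and Gbp3 without the last of these (1.13).

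**Figure D1:**
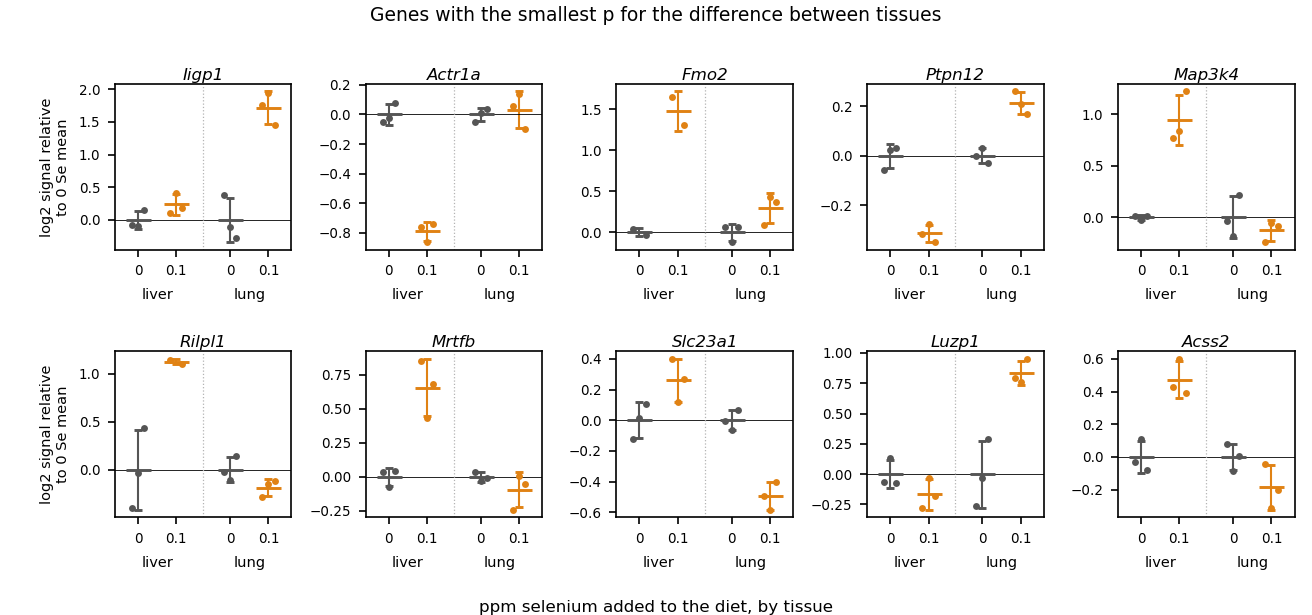
Log2 signal of the 10 genes with the smallest p of the difference between tissues, each array as a point relative to the 0 Se mean of its tissue (0 Se grey, 0.1 Se orange, dashes the group mean, bars the SD, 3 arrays per group, fewer where blank). Iigp1 stands 1.72 above its 0 Se mean in lung and 0.24 in liver, while Fmo2 stands 1.47 above it in liver and 0.30 in lung.

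The genes of interferon-γ signalling itself moved less. Of 7 tested (of 16), 0 passed in the averaged effect, and the medians were 0.13 in liver and 0.16 in lung. The receptor chains Ifngr1 and Ifngr2 gave 0.01 and 0.13 in liver and 0.10 and 0.16 in lung. Irf1, a transcription factor of the pathway, gave 0.43 in liver and 0.42 in lung, a difference of -0.01 ± 0.23. Nlrc5, the transactivator of MHC class I genes, gave 0.37 and 1.00 (difference 0.63, unadjusted p = 0.0371). The ligand itself is not among the 7. Of 18 type I interferon targets tested (of 29), 1 passed, Herc6, an interferon-induced ligase for ISG15, which rose by 0.62 (adjusted p = 0.0185) with 0.51 in liver and 0.73 in lung. Its call ended without 0 Se replicate 2 or 3 of either tissue or 0.1 Se lung replicate 1 or 2 (0.57 to 0.62). The other 17 did not pass, and the list's medians were 0.29 and 0.37.

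The genes of the immunoproteasome and of peptide loading, 11 tested of 12, had median effects of 0.25 in liver and 0.35 in lung and a median difference of 0.00. An effect of 1 sign at an unadjusted p under 0.05 in each tissue was met by 4 of the 11, where 109 of all probe sets met it (0.721%). The averaged effect passed for Psmb9 and Psmb8, which encode catalytic subunits of the immunoproteasome. Psmb9 signals in liver were 10.49, 10.40 and 10.73 in 0 Se and 11.01, 11.65 and 11.38 in 0.1 Se. In lung they were 11.16, 10.86 and 10.69 against 11.89, 11.73 and 11.46. The diets stood apart in both tissues. Psmb9 rose by 0.80 ± 0.12 (limma adjusted p = 0.00843), with 0.81 in liver and 0.79 in lung and a difference of -0.02 ± 0.23 (interval -0.52 to 0.48). Psmb8 rose by 0.65 (adjusted p = 0.0306), with 0.67 and 0.62. Its call ended (0.58 to 0.66) without 0 Se replicate 2 of either tissue, 0 Se lung replicate 3, 0.1 Se liver replicate 2 or 3, or 0.1 Se lung replicate 1 or 2. The third catalytic subunit, Psmb10, gave 0.56 and 0.42 and did not pass (adjusted p = 0.0540). The peptide transporter chain Tap1 gave 0.25 in liver and 0.95 in lung (difference 0.70 ± 0.30, unadjusted p = 0.0373), and its partner Tap2 gave 0.47 and 0.35.

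H2-M3, a nonclassical MHC class I molecule that presents formylated peptides, rose by 0.65 ± 0.09 (limma adjusted p = 0.00298). Its signals were 8.53, 8.56 and 8.46 against 8.98, 9.14 and 9.18 in liver and 10.34, 10.59 and 10.45 against 11.41, 11.07 and 11.07 in lung. The diets stood apart in both, and the difference of 0.14 ± 0.17 had an interval from -0.23 to 0.51. The other 3 class I genes tested, H2-K1, H2-D1 and B2m, gave 0.05 to 0.26 in liver and 0.11 to 0.21 in lung on their brightest probe sets. A dimmer one of the 4 tested probe sets of H2-K1 passed, with 0.23 in liver and 0.86 in lung (averaged effect 0.54, adjusted p = 0.0306, difference 0.62, unadjusted p = 0.00523). That call ended (0.49 to 0.55) without 0 Se replicate 2 or 3 of either tissue, 0.1 Se liver replicate 3 or 0.1 Se lung replicate 1 or 2. Of 6 MHC class II pathway genes tested (of 11), 0 passed, with medians of 0.43 and 0.38. H2-Aa, a class II chain, gave 0.98 in liver and 0.28 in lung (difference -0.70, unadjusted p = 0.0343). Other tested probe sets of H2-Aa gave 0.74 and 0.36, and 0.25 and 0.43, with differences of -0.38 and 0.18.

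Most tested markers of the Kupffer cell and macrophage list and of the monocyte list also had higher means in 0.1 Se in both tissues. Of 14 Kupffer cell and macrophage markers tested (of 19), 13 were above 0 in liver and 13 in lung, 4 moved alike (0.721% of all probe sets did) and 0 had an unadjusted p under 0.05 in the difference (6.16%). The medians were 0.38 and 0.27. On none of the 14 did the averaged effect pass. The summed signal of the whole list lay from 26122 to 32508 in 0 Se liver and from 34403 to 44031 in 0.1 Se liver. In lung it overlapped, from 49432 to 55936 against 47921 to 57158, with the Kupffer cell markers Clec4f and Cd5l blank on every lung array. Most of the lung sum was Lyz2, lysozyme, whose log2 signal averaged 15.19 in 0 Se and 15.04 in 0.1 Se. Alveolar macrophage markers did not share this rise. Of 3 tested (of 10), 1 was above 0 in liver and 1 in lung, with medians of -0.01 and -0.22. The 8 on the table summed in lung to 24338 to 32569 in 0 Se and 23510 to 31823 in 0.1 Se, which overlapped. The 11 monocyte and phagocyte oxidase genes on the table summed to 2341 to 3127 against 3975 to 5247 in liver and 7215 to 9687 against 10507 to 17329 in lung. The 14 NK and cytotoxic cell markers on the table summed to 112 to 651 against 502 to 922 in liver, where the NK receptor gene Ncr1 was blank, and to 4633 to 7156 against 7625 to 13348 in lung. Gzma, a granzyme of such cells, rose by 0.85 ± 0.15 (limma adjusted p = 0.0400), with 0.63 in liver and 1.06 in lung, and its call ended without any 1 array except 0.1 Se lung replicate 3 (0.74 to 0.92). The 12 T cell markers on the table overlapped between diets in both tissues (0 to 840 against 139 to 1684 in liver, 1831 to 3023 against 1863 to 3236 in lung), and Cd3e was blank on each of the 12 arrays. Markers of other cells stood at other mean levels between diets in lung. The 31 ciliated cell genes summed to 15852 to 18552 in 0 Se and 8624 to 15073 in 0.1 Se, without overlap, and the secretory cell gene Scgb3a1 averaged 12.77 and 9.71 on the log2 scale. The 17 club and secretory airway markers on the table, Scgb3a1 among them, summed to 197626 to 269307 and 150588 to 221017, which overlapped. Of these Scgb1a1 averaged 15.92 and 15.69, Scgb3a2 15.28 and 14.85 and Cyp2b10 13.21 and 13.32. The 11 neutrophil markers summed to 4197 to 7537 and 7311 to 21974, which overlapped. Their S100a8 and S100a9 averaged 10.29 and 9.52 in 0 Se and 11.92 and 11.22 in 0.1 Se. Csf3r and Il1b also had higher means in 0.1 Se lung, while Mmp9, Ltf, Ngp and Hdc had lower ones. The part of all these cells in the interferon results was not tested.

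**Figure D2:**
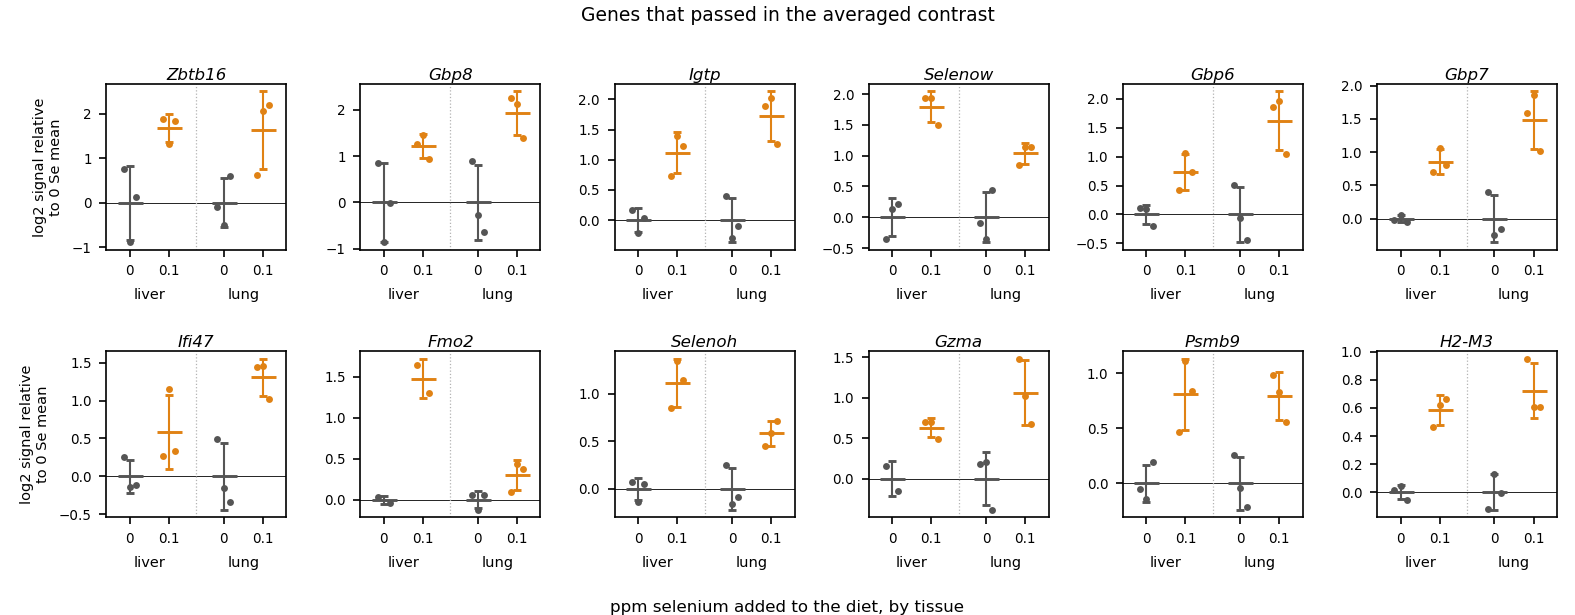
Log2 signal of the 12 genes with the largest averaged effect among those past the test whose diets overlapped in neither tissue, each array as a point relative to the 0 Se mean of its tissue (0 Se grey, 0.1 Se orange, dashes the group mean, bars the SD, 3 arrays per group, fewer where blank). Every 0.1 Se point lies above every 0 Se point of the same tissue. Psmb9 reached 0.81 in liver and 0.79 in lung, Igtp 1.11 and 1.73, and Selenow 1.79 and 1.04.

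The selenium-responsive selenoproteins ran the other way from the GTPases, with the larger effect in liver. For each of the 5 tested (of 6) the lung effect was below the liver effect. The medians were 0.82 in liver, 0.32 in lung and -0.53 for the difference. In the difference 3 of the 5 had an unadjusted p under 0.05, against 2.92% of all probe sets lower in lung. The averaged effect passed for 4 of the 5, against 0.238% of all probe sets higher in 0.1 Se. Selenow, a small redox protein of thioredoxin-like fold, read 8.40, 8.88 and 8.97 in 0 Se liver and 10.68, 10.69 and 10.25 in 0.1 Se liver. In lung it read 10.96, 10.71 and 11.50 against 11.90, 12.20 and 12.19. The diets stood apart in both tissues. It rose by 1.41 ± 0.14 (limma adjusted p = 0.00067), with 1.79 in liver, 1.04 in lung and a difference of -0.75 ± 0.28 (interval -1.34 to -0.16, unadjusted p = 0.0164, adjusted p = 0.760). Its single tested probe set may also bind related transcripts. Its other probe set, blank in liver, read 7.81, 7.5 and 7.39 against 8.16, 7.96 and 8.35 in lung.

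Selenoh, a nucleolar selenoprotein, read 8.94, 8.73 and 8.92 against 9.71, 10.21 and 10.01 in liver and 9.66, 9.25 and 9.33 against 9.86 to 10.13 in lung. It rose by 0.85 ± 0.11 (limma adjusted p = 0.00185), and the difference of -0.53 ± 0.21 had an unadjusted p of 0.0242. Selenok, a membrane selenoprotein of the endoplasmic reticulum, read 12.13, 11.75 and 12.31 against 12.84, 12.90 and 12.90 in liver, where the diets stood apart. In lung it read 12.93, 12.93 and 12.88 against 13.23, 12.91 and 12.97, where they overlapped. Its effects were 0.82 and 0.12, and the difference was -0.70 ± 0.17 (unadjusted p = 0.00114, adjusted p = 0.574). The other tested probe set of Selenok gave 0.73 and -0.02, with an averaged effect of 0.36 that did not pass (limma adjusted p = 0.217). Gpx1, the cytosolic glutathione peroxidase, rose by 0.44 ± 0.08 (adjusted p = 0.0406), with 0.56 in liver and 0.32 in lung. The Selenok call (averaged effect 0.47, adjusted p = 0.0400) held without 0 Se liver replicate 3 or 0.1 Se liver replicate 1 and ended without any other array (0.39 to 0.50), and that of Gpx1 held without replicate 3 of 0 Se liver or lung and ended without any other (0.40 to 0.47). Selenop, the transport protein of plasma, gave 0.19 in liver and -0.03 in lung.

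Housekeeping selenoproteins, which are held up when selenium is short, gave lower lung effects too. Sephs2, the enzyme that makes selenophosphate for selenocysteine synthesis, fell with selenium by 0.37 ± 0.06 on average (limma adjusted p = 0.0266). Its signals were 14.61, 14.64 and 14.84 against 14.49, 14.34 and 14.48 in liver and 9.77, 9.90 and 9.83 against 9.26, 9.41 and 9.38 in lung. Every 0.1 Se array lay below every 0 Se array of its tissue, and the effects were -0.26 and -0.48. The call ended without 0 Se replicate 2 or 3 of either tissue, 0.1 Se liver replicate 2 or 0.1 Se lung replicate 1 (-0.39 to -0.34). Other tested probe sets of Sephs2 gave averaged effects of -0.33 and -0.19 that did not pass (limma adjusted p = 0.0694 and 0.635). Txnrd1, the cytosolic thioredoxin reductase, moved apart. It read 10.57, 10.72 and 10.71 against 11.18, 11.13 and 10.82 in liver and 10.77, 10.64 and 10.68 against 10.48, 10.23 and 10.44 in lung. The effects were 0.37 ± 0.11 and -0.31 ± 0.11, and the difference of -0.68 ± 0.16 (interval -1.02 to -0.35, unadjusted p = 0.000586) did not pass (limma adjusted p = 0.536). Gpx4, which reduces lipid peroxides, gave -0.10 and -0.28. Among 7 other selenoproteins tested (of 15), Txnrd3 had the smallest p of the difference, with 0.57 in liver and -0.18 in lung (unadjusted p = 0.00195). The 7 tested genes of selenocysteine synthesis and selenium uptake (of 11) had 0 members at an unadjusted p under 0.05 in either tissue, against 9.34% of all probe sets in liver and 5.27% in lung.

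**Figure D3:**
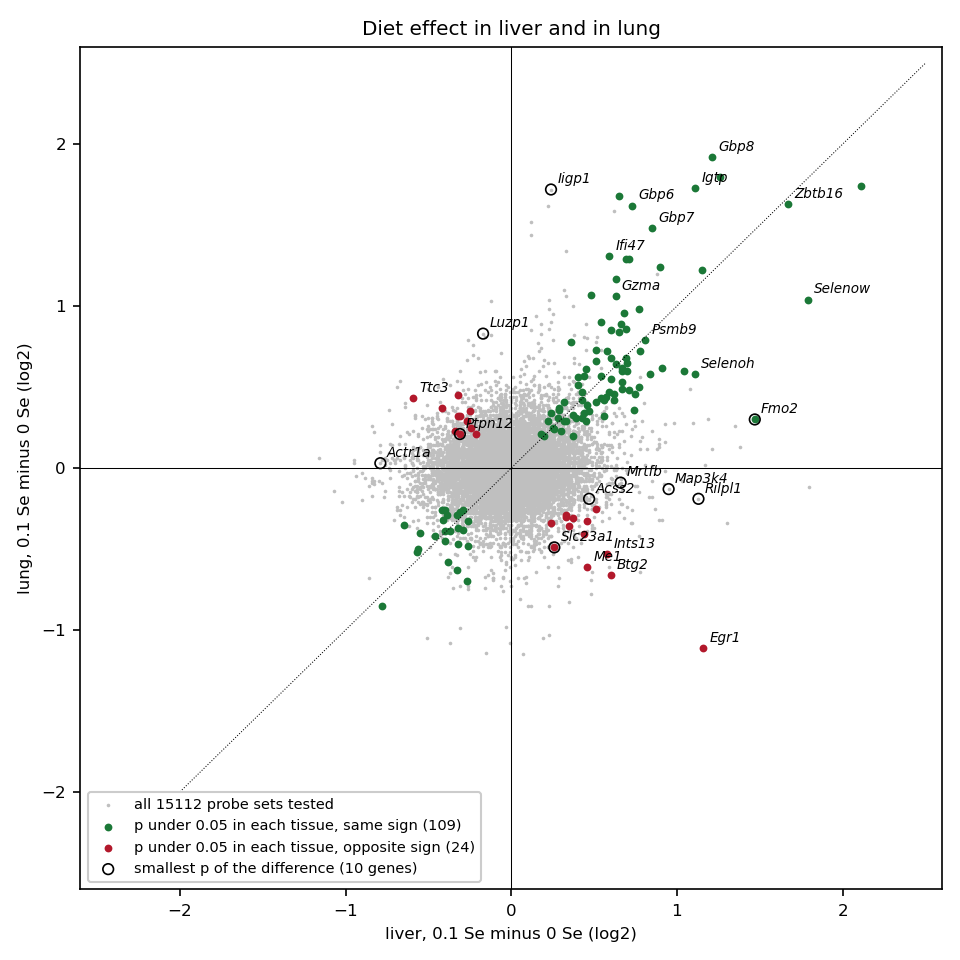
Diet effect (0.1 Se minus 0 Se, log2) in liver on the horizontal axis against that in lung on the vertical axis for 15112 probe sets, with 109 that moved alike in green, 24 that moved apart in red and open circles on the 10 genes of the smallest p of the difference. Iigp1, Igtp and Gbp7 lie above the dotted line of equal effects (1.72, 1.73 and 1.48 in lung) and Selenow and Selenoh below it (1.79 and 1.11 in liver).

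Over all probe sets, 109 moved alike (0.721%), 85 higher and 24 lower in 0.1 Se, and 24 moved apart (0.159%), 13 of them higher in liver and lower in lung. These carried 90 and 23 genes. Diets that overlapped in neither tissue were found for 194 probe sets of the same sign (1.28%) and 110 of opposite sign (0.728%). The effects of liver and lung correlated weakly across probe sets (Pearson r = 0.143, Spearman rank coefficient 0.0676, a description, since probe sets share the same arrays). Of the 40 probe sets past the test in the averaged effect, 39 had 1 sign in both tissues, 24 had the larger effect in lung and 16 in liver. Choice by the mean of both effects favours a shared sign, so the 39 cannot show a shared response. Of the 40, 30 moved alike and 27 had diets that overlapped in neither tissue. In the difference 19 of them had an unadjusted p under 0.05 (6.16% of all probe sets). Beside the genes above the 40 held Zbtb16, a glucocorticoid-inducible transcription factor, which rose by 1.65 ± 0.29 (limma adjusted p = 0.0334) with 1.67 in liver and 1.63 in lung. Its difference of -0.04 had an interval from -1.30 to 1.22, and its call ended (1.43 to 1.69) without 0 Se liver replicate 2 or 3, 0.1 Se liver replicate 3, 0 Se lung replicate 1 or 2, or 0.1 Se lung replicate 2 or 3. The count of 40 was 16 without 0 Se liver replicate 2, 0 Se lung replicate 2 or 0.1 Se lung replicate 2, and 64 without 0.1 Se liver replicate 1. Of the 22 genes higher in the averaged effect that had a promoter on file (of 26), 5 held the GAS motif (22.7%) and 7 the ISRE core (31.8%). Among 60 such genes that moved alike and higher, 9 held GAS (15.0%) and 15 the core (25.0%), and among 18 that moved apart 1 held each (5.56%).

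Beyond Iigp1, the genes with the smallest p of the difference mostly had their effect in liver, where 14 of all probe sets passed (0.0926%), and the difference passed for 0 of them. Actr1a, a subunit of dynactin, fell in liver, where the 0 Se arrays read 10.22, 10.25 and 10.35 and the 0.1 Se arrays 9.51, 9.41 and 9.53 (-0.79 ± 0.10, limma adjusted p = 0.006). In lung it read 10.14, 10.20 and 10.23 against 10.25, 10.33 and 10.09, with an effect of 0.03 ± 0.10. The difference was 0.83 ± 0.14 (interval 0.52 to 1.13, adjusted p = 0.154). Fmo2, a flavin-containing monooxygenase that is abundant in lung, rose in liver by 1.47 ± 0.15 (adjusted p = 0.00191, 2 values per diet), near the lower end of the signal range at 6.85 and 6.78 against 8.46 and 8.12. In lung it read 12.71, 12.53 and 12.71 against 12.74, 13.08 and 13.02, and the difference was -1.18 ± 0.19 (adjusted p = 0.154). Its 3 other probe sets gave 0.60 to 0.68 in liver and 0.14 to 0.21 in lung. With blanks at the lowest value of the table, the calls of Fmo2 in liver (0.98, adjusted p = 0.601) and in the average (adjusted p = 0.627) were lost.

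The next genes shared an adjusted p of 0.370. Ptpn12, a tyrosine phosphatase of cell adhesion, gave -0.31 ± 0.07 in liver and 0.21 ± 0.07 in lung, and its difference of 0.53 ± 0.11 was matched in sign by its 3 other probe sets (0.39, 0.19 and 0.40). Map3k4, a stress kinase, rose in liver by 0.95 ± 0.15 (limma adjusted p = 0.0337), with -0.13 in lung. Its 3 other probe sets gave differences of 0.32, 0.04 and 0.02, of the opposite sign. Mrtfb, a coactivator of serum response factor, rose in liver by 0.66 ± 0.11 (adjusted p = 0.0368), with -0.09 in lung. The liver call of Map3k4 held without 0.1 Se liver replicate 1, 0 Se lung replicate 2 or 3 or 0.1 Se lung replicate 1 and ended without any other array (0.81 to 1), and that of Mrtfb held without 0.1 Se liver replicate 2 or 0.1 Se lung replicate 1 and ended without any other (0.56 to 0.68). Rilpl1 gave 1.13 and -0.19, and Luzp1 gave -0.17 in liver and 0.83 in lung. The other tested probe set of Luzp1 gave -0.37 and -0.05, with no rise in lung. Slc23a1, a vitamin C transporter, read 11.22, 11.36 and 11.45 against 11.74, 11.46 and 11.61 in liver and 8.46, 8.40 and 8.53 against 7.97, 7.88 and 8.06 in lung. The diets overlapped in neither tissue, and the effects of 0.26 and -0.49 differed by -0.75 ± 0.16. Acss2, which makes acetyl-CoA from acetate, gave 0.47 and -0.19 on one probe set and 0.10 and -0.19 on the other.

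The 24 probe sets that moved apart were led by immediate early genes, and none of their differences passed. Egr1, a transcription factor induced within minutes by growth factors, read 7.37, 8.66 and 8.23 in 0 Se liver and 8.16, 9.47 and 10.10 in 0.1 Se liver. In lung it read 13.15, 12.17 and 13.02 against 12.31, 11.38 and 11.32. The diets overlapped in both tissues. The effects were 1.16 ± 0.43 and -1.11 ± 0.43 and the difference -2.27 ± 0.61 (unadjusted p = 0.00226, limma adjusted p = 0.610). Btg2, an antiproliferative gene, gave 0.60 and -0.66. Of 13 immediate early genes tested (of 24), the medians were 0.05 in liver and -0.49 in lung. In lung 8 of the 13 had a negative effect at an unadjusted p under 0.05, against 2.62% of all probe sets, and 6 had a lower effect in lung than in liver by that measure. The phosphatase Dusp1 gave 0.15 and -0.64, the endothelial factor Klf2 0.23 and -0.49 and the growth factor gene Ccn2 0.28 and -0.22. Other members fell in both tissues, among them Ccn1 with -0.86 and -0.68 and Nr4a1 with -0.51 and -1.05. Of the 13, 8 were above 0 in liver and 1 in lung, and 2 moved apart.

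**Figure D4:**
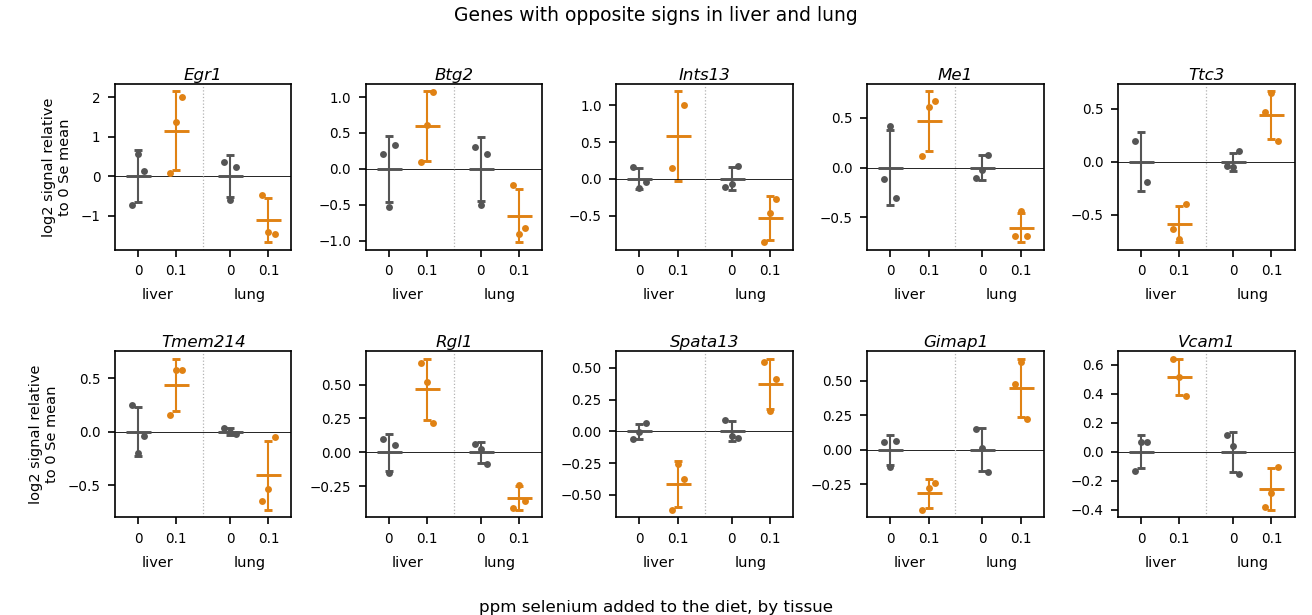
Log2 signal of the 10 genes with the largest differences among those that moved apart, each array as a point relative to the 0 Se mean of its tissue (0 Se grey, 0.1 Se orange, dashes the group mean, bars the SD, 3 arrays per group, fewer where blank). Egr1 moved by 1.16 in liver and -1.11 in lung with wide spread, and Vcam1 by 0.51 and -0.25 with narrow spread.

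Vcam1, the adhesion molecule that holds leukocytes on endothelium, read 9.07, 9.27 and 9.27 against 9.84, 9.72 and 9.59 in liver and 11.35, 11.27 and 11.08 against 10.85, 10.95 and 11.13 in lung. The diets stood apart in liver and overlapped in lung, and the effects of 0.51 and -0.25 differed by -0.76 ± 0.16 (unadjusted p = 0.000319, limma adjusted p = 0.371). Another probe set of Vcam1 gave 0.59 and -0.19. Me1, the cytosolic malic enzyme that supplies NADPH for fatty acid synthesis, read 11.71, 12.24 and 11.52 against 11.94, 12.43 and 12.49 in liver and 9.67, 9.76 and 9.91 against 9.09, 9.34 and 9.09 in lung. Its effects were 0.46 and -0.61, while its brighter probe set gave 0.07 and -0.19. Of opposite sense, Gimap1, a GTPase of lymphocytes, gave -0.32 and 0.45, Spata13, a guanine nucleotide exchange factor, gave -0.42 and 0.37, and Ttc3 gave -0.59 and 0.43. The other 3 probe sets of Ttc3 gave differences of 0.32, 0.11 and -0.13. Tmem214, Rgl1 and Ints13 gave 0.44, 0.46 and 0.58 in liver and -0.41, -0.33 and -0.53 in lung, and the 2 other probe sets of Ints13 lay between -0.17 and 0.02 in either tissue.

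Acute phase genes had the lower effect in lung for 16 of 17 tested (of 34). The median difference was -0.52, from 0.23 in liver to -0.05 in lung, and 8 of the 17 had an unadjusted p under 0.05, all lower in lung (2.92% of all probe sets were), though 0 passed. Hp, which binds free haemoglobin, read 14.67, 14.84 and 15.02 against 14.96, 15.08 and 15.05 in liver and 14.12, 14.11 and 14.38 against 13.81, 13.70 and 13.93 in lung. The diets overlapped in liver and stood apart in lung, with effects of 0.19 and -0.39. The copper carrier Cp gave 0.07 and -0.46, while the differences of its 7 tested probe sets ran from -0.53 to 0.34, and the interleukin-1 receptor Il1r1 gave 0.85 and 0.01. Lcn2, an iron-trapping protein singled out after its values were seen, read 7.06, 7.0 and 7.91 against 8.50, 10.35 and 8.54 in liver and 9.96, 9.60 and 9.11 against 9.80, 8.96 and 9.54 in lung. The diets stood apart in liver and overlapped in lung, and the difference was -1.92 ± 0.58 (unadjusted p = 0.00506). The metallothioneins Mt1 and Mt2 gave 0.23 and 0.49 in liver and -0.85 and -0.64 in lung, where the diets overlapped.

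Genes of fatty acid synthesis and of oxidative phosphorylation mostly had differences slightly below 0, and 0 of them passed. The difference was below 0 for 16 of 19 tested genes of fatty acid synthesis (of 21), with a median of -0.29, and 3 had an unadjusted p under 0.05, against 2.92% of all probe sets lower in lung. Acacb, a carboxylase that makes malonyl-CoA, gave 1.03 in liver and -0.08 in lung, and its relative Acaca gave 0.34 and -0.39. Of 29 tested oxidative phosphorylation subunits (of 30), 26 had a difference below 0 with a median of -0.13, and 3 had an unadjusted p under 0.05, against the same 2.92%. This median was -0.06 after quantile normalization. Uqcrc2, a core protein of complex III, gave 0.20 and -0.18. Heart muscle markers, which liver mostly lacked, were listed in lung, where their summed signal lay between 5772 and 50047 in 0 Se and between 7288 and 26573 in 0.1 Se. The part of heart muscle in the lung values was not tested.

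In the lists of other pathways 0 differences passed. For the unfolded protein response, 17 genes tested of 20, the medians were 0.20 in liver and 0.16 in lung with a median difference of 0.00, and 0 of the 17 passed in the averaged effect. Of these, Sdf2l1, a chaperone of the endoplasmic reticulum, gave 0.60 and 0.68. Targets of NRF2, 18 tested of 25, gave 0.00 and -0.12. Cholesterol synthesis, 16 tested of 22, gave -0.05 and -0.01, and the clock genes, 15 tested of 21, gave 0.00 and 0.06. Of 14 glucocorticoid and fasting targets tested (of 22), 10 had a lower effect in lung, 4 of them at an unadjusted p under 0.05 (2.92% of all probe sets). Among these Ddit4, an inhibitor of mTOR signalling, gave 0.59 and -0.61. Of 8 cytochrome P450 genes tested (of 34), 2 had the lower effect in lung by that measure. Cyp2b10, which phenobarbital induces in liver, gave 1.21 in liver and 0.12 in lung on its brightest probe set. A dimmer one passed in the averaged effect (0.75, adjusted p = 0.0488), with 1.38 and 0.13, a call that ended without any 1 array but 0 Se liver replicate 3 (0.64 to 0.82). The lung airway gene Cyp2f2 gave 0.10 and -0.41.

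**Figure D5:**
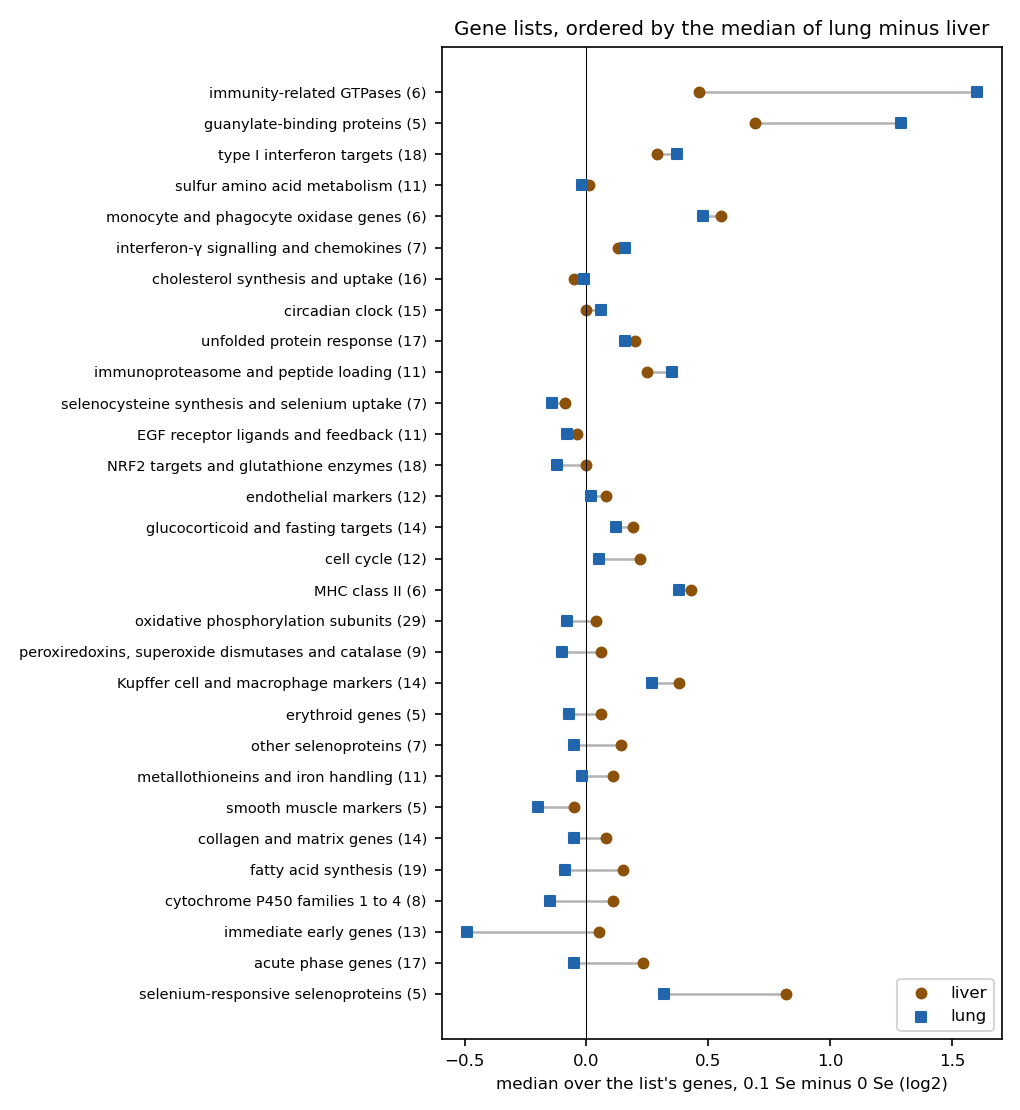
Median diet effect (0.1 Se minus 0 Se, log2) of each gene list with at least 5 tested genes, in liver (circles) and lung (squares). The immunity-related GTPases lie at 0.46 in liver and 1.60 in lung, the selenium-responsive selenoproteins at 0.82 and 0.32, and the immediate early genes at 0.05 and -0.49.

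The tissue labels matched their markers. Albumin mRNA (Alb) averaged 15.69 in 0 Se liver and was listed on 1 to 2 lung arrays per diet near 6.9, while the surfactant gene Sftpc averaged 15.47 and the club cell gene Scgb1a1 15.92 in lung and both were blank in liver, except Sftpc on 1 array near the lowest value (6.96). Arrays of 1 group correlated at 0.9779 to 0.9898. Listed probe sets numbered 17235 to 17923 per liver array and 22197 to 22718 per lung array. No counts or depths exist for arrays, and 3 per group limit the precision: the median SE was 0.21 for the difference and 0.11 for the averaged effect.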

How the data were processed

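Total RNA of liver and lung (2 diets, 3 arrays each, 12 arrays) had been extracted with TRIzol and hybridized to Affymetrix mouse genome arrays. The authors derived MAS5 signals, scaled every array by itself and dropped absent calls (R 2.15.2 and affy 1.36.0 in the submitters' processing notes). What they deposited is on the log2 scale and covers 29467 probe sets, ranging between 6.64, which is a signal of 100, and 16.4, where a blank may be an absent call or a signal under 100. The 58 control probe sets were left out. Because arrays were scaled one by one, a level is not compared between probe sets, and a change is relative to each array's total. The labels do not say whether a liver and a lung array of one number came from 1 mouse, so p-values measure the spread between these arrays. The paper speaks of 3 mice per diet for the liver and lung chips. If each mouse gave both tissues, the averaged effect treats arrays of 1 mouse as independent. Its SE and p-values may then be too small. A block of diet and number leaves no averaged effect to fit, so this was not tested.

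In R 4.3.3 with limma 3.58.1 and the reader package data.table (version 1.17.8), 4 group means were fitted over the 12 arrays with a trend in eBayes. Contrasts gave the effect in each tissue, the difference and the average, and p-values were adjusted by Benjamini-Hochberg over 15112 probe sets at 0.05. Moving alike or apart means an unadjusted p under 0.05 in each tissue with the same or opposite sign, described without a test of the count. The fit was tested on simulated data with known changes.

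Genes named were, among probe sets of 1 gene, up to 10 of the difference (places left by calls filled with the smallest unadjusted p under 0.001), up to 12 of the averaged effect whose diets did not overlap, up to 10 that moved apart, up to 3 members of each list and the measured selenium-responsive and housekeeping selenoproteins. Members of short lists given beyond these (Irgm1, Gm4951, Gbp2, Gbp3, Tap1, Tap2, H2-Aa, Lcn2 and the like) were picked after their values were seen. A gene of a list is read on its brightest tested probe set. The genes, lists and tests were chosen with earlier results of these data known. Promoters came from RefSeq (GRCm38.p6), and motifs are letters found, not sites shown to be bound. Alternatives changed the filter, normalization, pseudocount, eBayes settings, array weights, replicate number as a block, the probe set of a gene, and left out each array in turn. The methods' t-test within each tissue was run too.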

Additional observations from a re-analysis of the deposited data

Results flagged for a closer look

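In 10 named genes the 0.1 Se arrays lay on one side of the 0 Se arrays in liver and on the other side in lung, with no overlap in either tissue. The test of the difference, lung minus liver, gave -1.32 for Rilpl1 and -0.75 for Slc23a1 (limma adjusted p = 0.370 for both), -0.79 for Rgl1 (adjusted p = 0.610) and -0.68 for Txnrd1 (adjusted p = 0.536). It gave -0.65 for Spry1, a feedback inhibitor of growth factor signalling (limma adjusted p = 0.760), and -0.38 for Uqcrc2 (adjusted p = 0.732). The effect was higher in lung by 0.53 for Ptpn12 (limma adjusted p = 0.370), 0.77 for Gimap1 (adjusted p = 0.610), 0.79 for Spata13 and 1.02 for Ttc3 (adjusted p = 0.574 for both). So 0 of the 10 passed. Such a pattern of opposite sides was met by 110 probe sets in all (0.728%), and by 194 on the same side (1.28%). Each array was left out in turn, as given below, but no test for outlying arrays was run on these groups of 3.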

How the results depend on the processing

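The counts of differences, averaged calls, probe sets moving alike and moving apart were 0, 40, 109 and 24, and 15 probe sets passed in the lung contrast and 14 in the liver contrast. With blanks at the lowest value of the table they included 58 differences, 81 averaged calls (13 of them among the 40) and 57 moving apart, with 160 calls in lung and 35 in liver. With array weights there were 63 averaged calls and 52 moving apart, with 94 calls in lung and 8 in liver. A variance for each tissue gave 35 in lung and 7 in liver. A robust trend gave 25 averaged calls, no trend gave 14 and 4 calls in lung, and a mean signal above the median gave 15 moving apart. The methods' t-test gave 51 moving alike, and 0 alike and 0 apart after Benjamini-Hochberg adjustment. Leaving out each array in turn gave 0 to 3 differences (3 lacking 0 Se lung replicate 1, 1 lacking 0.1 Se liver replicate 2), 16 to 64 averaged calls, 76 to 147 moving alike, 17 to 44 moving apart, 2 to 20 calls in lung and 3 to 37 in liver. The lows came without 0 Se liver replicate 2 (16 and 76), also 16 without 0 Se or 0.1 Se lung replicate 2, without 0 Se lung replicate 3 (17 apart), without 0.1 Se lung replicate 2 (2 in lung) and without 0 Se liver replicate 2 (3 in liver). The highest averaged, alike, apart and liver counts came without 0.1 Se liver replicate 1, and that in lung without 0.1 Se liver replicate 2.

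With diet and number as a replicate block, which pairs liver and lung arrays of one number, 3 differences passed, the 2 probe sets of Iigp1 (1.48, adjusted p = 0.0463, and 1.4, adjusted p = 0.0315) and 1 without a name. The numbers are not shown to pair the arrays: deviations of liver and lung arrays of one number correlated at 0.11, 0.06 and 0.11 in 0 Se, each best with its own number, but at 0.00, 0.02 and -0.04 in 0.1 Se. With the number alone as a replicate block the counts were 0, 38, 118 and 27, with 21 in lung and 10 in liver.

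Directions reversed for 4 genes that had not passed: over the arrays left out, Fabp5 lay from -0.40 to 0.08 in the averaged effect (0.08 lacking 0.1 Se liver replicate 1), and in the difference Ighm from -0.14 to 0.39 (-0.14 lacking 0 Se liver replicate 3, -0.02 lacking 0.1 Se liver replicate 1, -0.01 lacking 0 Se lung replicate 3), Cav1 from -0.84 to 0.02 (0.02 lacking 0.1 Se liver replicate 2) and Hopx from -0.41 to 0.02 (0.02 lacking 0.1 Se lung replicate 1). Ighm was also -0.24 with blanks at the lowest value. The averaged calls of Igtp, Selenow, Selenoh, H2-M3, Iigp1 and the dimmer probe set of Gbp7 held in each alternative run on them. Those of the brighter probe set of Gbp7 (adjusted p = 0.081), the dimmer one of Gbp6 (0.0937), Psmb9 (0.0707) and Fmo2 (0.627) ended only with blanks at the lowest value. Those of Zbtb16, Gbp8, the brighter probe set of Gbp6, the dimmer ones of H2-K1 and Cyp2b10, Ifi47, Irgm1, Gzma, Selenok, Sephs2, Psmb8, Herc6 and Gpx1 ended in 6 to 16 settings and that of Irgm2 in 4. For all of these the cause was not tested.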

Other observations

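Some probe sets were listed on the 3 arrays of one diet and blank on the 3 of the other, which no contrast can take up. In liver 42 were listed in 0.1 Se alone and 55 in 0 Se alone, and in lung 52 and 68. Between liver and lung, 0 probe sets were shared in the same diet. In 0 Se liver alone stood Gpank1 with a mean log2 signal of 9.17, Tnrc6c with 9.11 and Ccdc97 with 8.27, named after their values were seen.

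Among 16 genes with a promoter that moved alike and were lower in 0.1 Se, 4 held the E-box CACGTG (25.0%, against 6.05% of all 27025 promoters): Sephs2, Eva1a, Prpf39 and Tlcd4. None of the 16 held the GAS motif or the ISRE core. This is a description of letters in a short window, with no test.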
